A study of Mus musculus with 2 samples.

Results

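The mitotic kinetochore and spindle genes are 50 genes that build and run the division apparatus, and they were taken by gene name from the 34745 genes of the deposited tables. All 50 were found, all had reads in both libraries, and all are protein-coding in GENCODE M21. The rule uses gene names and no measured value. Scl/tTA-BA mice on the C57BL/6 background carry a tetracycline-controlled transactivator (tTA) under an Scl promoter, active in hematopoietic stem and progenitor cells, and a BCR/ABL transgene (BA) that tTA switches on once doxycycline leaves the drinking water. The week-0 library came from mice kept on doxycycline and the week-3 library from mice 3 weeks after doxycycline withdrawal, and both carried both transgenes. LSKs, the lineage-negative, c-Kit+ and Sca1+ fraction of bone marrow (BM), were sorted from 3 mice per time point and mixed into 1 library each, so the spread between mice is unknown. The time on doxycycline and the induced transgene come together in this design and cannot be told apart from any other difference between the 2 libraries. The share of week-3 LSKs that expressed BA was not analysed here.

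A dividing cell enters mitosis when Cdk1 is activated by its cyclin partners, and Aurora and Polo kinases then drive spindle assembly. Kinetochores, built on centromeric chromatin marked by the histone variant CENP-A, attach chromosomes to microtubules through the Ndc80 complex. The spindle checkpoint holds the anaphase-promoting complex in check until every chromosome is attached, after which separase opens cohesin and the cell divides. Most of these genes are transcribed in late S phase, G2 and mitosis, so in a bulk sample their level follows both how many cells are cycling and how much RNA each cycling cell holds. Fewer or more cells of a kind and less or more RNA per cell cannot be told apart here. Long-term hematopoietic stem cells are mostly quiescent, whereas the multipotent progenitors that share the LSK gate divide more often.

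The tables list, per gene, a read count and an FPKM, which is the count divided by exon length and library size. Library size, the sum of counts over genes, was 6356164 for week-0 and 3886695 for week-3, and 15377 genes were above 0 in both. Changes are log2 FPKM ratios of week-3 to week-0, with no pseudocount. Intervals are exact Clopper-Pearson intervals at 95% from the read counts. They hold counting error alone, because the cDNA was amplified before sequencing and because no replicate stands behind either library. A gene is called higher when its ratio was at least 2 with an interval above no change, and lower when its ratio was at most 0.5 with an interval below no change. Wider limits of 1.5 and 0.67 were used in the same way. The sorting markers were present in both libraries but lower at week-3. Kit, which encodes c-Kit, had 1391 reads (FPKM 16.9) at week-0 and 580 reads (FPKM 11.5) at week-3. Ly6a, which encodes Sca1, had 434 reads (FPKM 19.8) and 199 reads (FPKM 14.8).

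Most of the mitotic genes had a modestly higher FPKM at week-3. The FPKM was higher at week-3 for 37 of the 50 genes and lower for 13. Of the 15377 genes above 0 in both libraries, 8253 were higher and 7124 lower. The median change was 0.36 for the 50 genes, beside 0.09 over those 15377 genes. Relative to that all-gene median, 36 of the mitotic genes were above and 14 below, a count that does not depend on the scaling. The middle 50% of the mitotic genes lay between -0.01 and 0.65, and that of all genes between -0.61 and 0.68. Among the 8862 genes with at least as many summed reads as the least read mitotic gene, which is 98 reads, the median change was 0.10 and the quartiles were -0.43 and 0.53. Together the 50 genes took 22394 week-0 reads, or 3523 per 1000000 (interval 3477 to 3570), and 16764 week-3 reads, or 4313 per 1000000 (interval 4248 to 4379), a ratio of 1.22 (interval 1.20 to 1.25). The ratio was also 1.22 without Bub3, the most abundant of them.

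Large changes were few. At the limit of 2 times, 4 mitotic genes were higher, namely Ttk, Anln, Sgol1 and Mad2l1, which is 8.0% of the 50 beside 9.53% of all genes. At the limit of 0.5 times, Cenpi was the sole gene called lower, 2.0% beside 11.5% of all genes. With the wider limits, 17 mitotic genes were higher (34.0%, beside 18.3% of all genes) and 2 were lower, Ccna2 and Cenpi (4.0%, beside 17.1%). The counting interval lay wholly above no change for 30 genes (60.0%, beside 28.4% of all genes) and wholly below it for 6 (12.0%, beside 22.5%), while 14 intervals held no change. Because deep genes have narrow intervals, the share among the genes with at least 98 summed reads is the closer comparison. There 39.3% lay wholly above and 29.6% wholly below, though depth within that set was not matched to the mitotic genes. Among these deep genes, 7.58% were higher at 2 times, 21.8% at 1.5 times, 20.1% lower at 0.67 times and 11.3% lower at 0.5 times. Scaling by TMM, which puts the median of all genes at -0.02 and that of the mitotic genes at 0.25, left 3 of the 4 genes higher at 2 times and 11 of the 17 higher at 1.5 times, where 7.73% and 14.7% of all genes were then higher. These shares describe 2 libraries, and how they would vary between mice is not known.

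**Figure D1:**
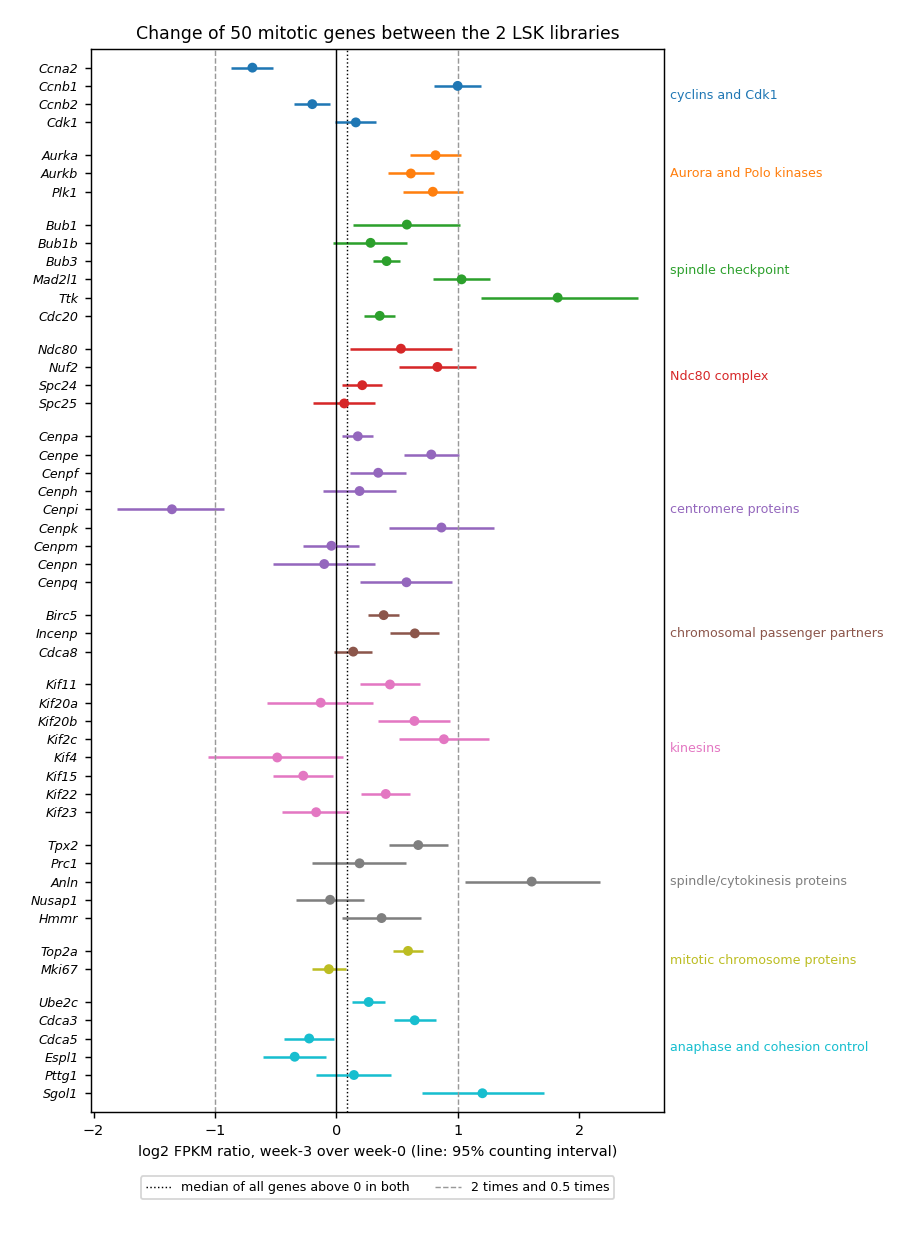
Change of each of the 50 mitotic genes as log2 FPKM ratio of week-3 over week-0 (horizontal axis), grouped by role. Points are the ratios, horizontal lines the 95% counting intervals, the dotted line the median of all genes at 0.09, and dashed lines 2 times and 0.5 times. Most points lie right of the dotted line, Ttk, Anln, Sgol1 and Mad2l1 lie beyond 2 times, and Cenpi lies below 0.5 times.

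The level of the genes within each library was ordered much alike at both time points. In the week-0 library FPKM ran from 0.837 (Ttk) to 111 (Bub3), and in the week-3 library from 1.63 (Prc1) to 148 (Bub3). The median FPKM of the 50 genes was 9.93 and 12.0, against 2.65 and 2.59 over all genes above 0 in both, and 45 and 47 of them were above the all-gene median. Pearson's r between the log2 FPKM of the libraries was 0.94 and Spearman's rho was 0.95 across the 50 genes, which share their libraries and are not independent replicates. No gene moved by more than 11 places in the order of FPKM. The order between genes depends on the exon length used. The length behind the deposited FPKM was over 2 times that of the longest-coding GENCODE transcript for 19 genes, and per kilobase of that transcript the order at week-0 was led by Birc5, then Ube2c, then Cenpa. Ratios of a gene between the libraries do not involve its length.

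**Figure D2:**
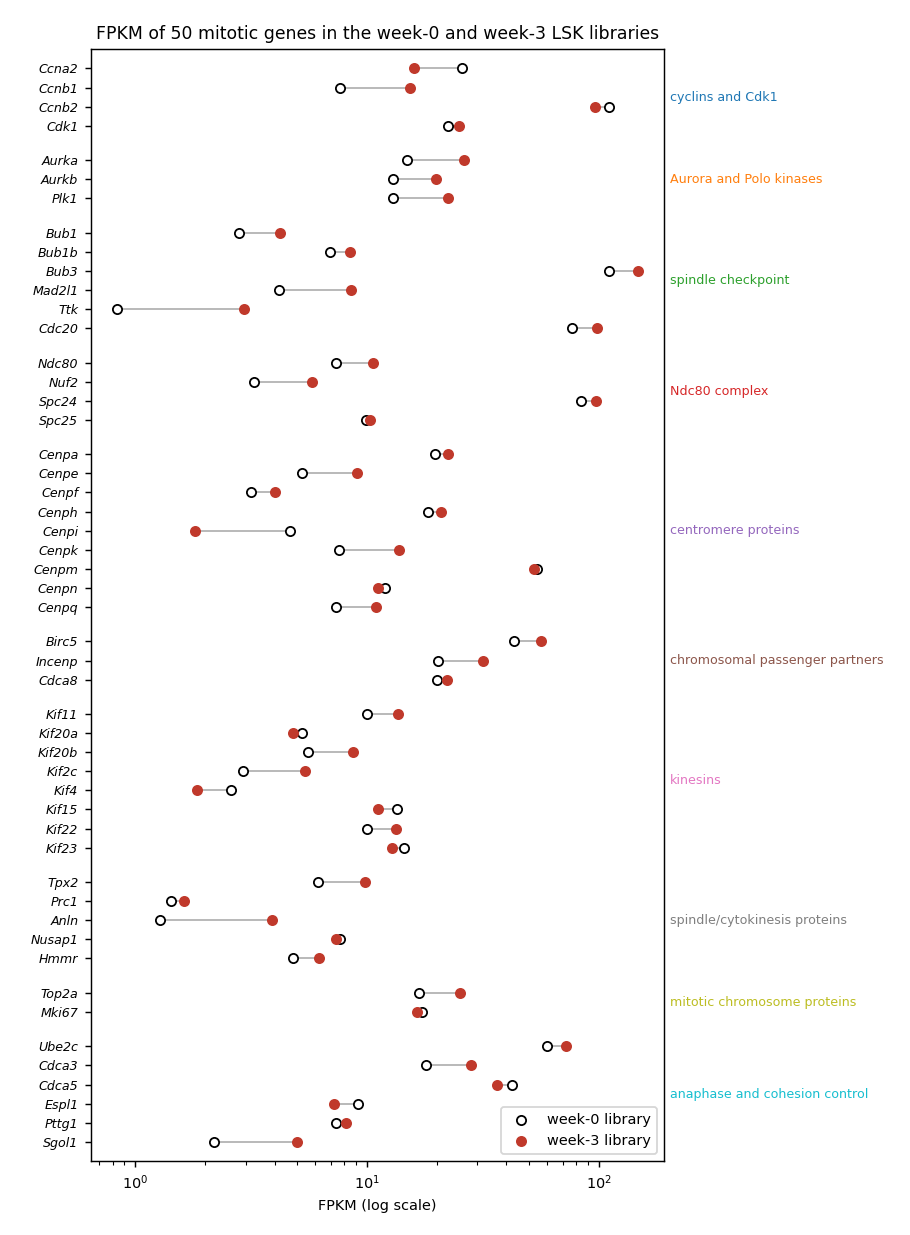
FPKM of the 50 mitotic genes (horizontal log axis) in the week-0 library (open circles) and the week-3 library (filled circles), 1 library each, grouped by role. Bub3 is at the right edge with 111 and 148, Ttk moves from 0.837 to 2.96, and Cenpi moves left from 4.66 to 1.82.

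Genes of this kind are known to carry, close to their start, a cell cycle genes homology region (CHR), bound by the DREAM and MuvB complexes, and CCAAT boxes, bound by NF-Y, while many S phase genes carry E2F sites. Promoter windows of RefSeq (GRCm38.p6), running from 250 bases before to 50 bases after the annotated start, were found for 44 of the 50 genes. Ccna2, Aurkb, Spc24, Incenp, Kif20a and Tpx2 were not matched. The CHR letters TTTGAA or TTCGAA, read on both strands (the second is its own reverse complement), were in a window of 33 of the 44 genes (75.0%), compared with 21.7% of 27025 genes and 16.8% of the 10450 matched genes above 0 in both libraries. They began within 50 bases of the start in 30 genes (68.2%), against 6.12% of all genes and 4.41% of those above 0 in both libraries. The letters CCAAT on either strand were in 33 genes (75.0%), against 41.1% of all genes and 42.4% of those above 0 in both libraries, and both kinds of letters were in 27 genes (61.4%), against 8.61% and 6.92%. E2F letters (TTTCGCGC, TTTGGCGC, TTTCCCGC, TTTGGCGG, TTTCCCGG, TTCCCGCC or TTTCGCGG, which partly overlap one another) were in 6 genes (13.6%), against 6.11% of all genes and 10.9% of those above 0 in both libraries. Of 25 matched licensing and S phase genes, 5 held CHR letters, 18 CCAAT (72.0%) and 15 E2F letters (60.0%). A match of letters is a description and not a binding site.

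The stretches printed here are those of the most read mitotic genes whose CHR letters lie before the start, with Cdk1 and Ccnb1, the kinase and the cyclin at the top of the pathway. Each is 120 bases, 5′ to 3′ on the strand of the gene, from RefSeq windows of GRCm38.p6, and capitals mark the CHR letters and the CCAAT letters, each on either strand. The stretch of Bub3 is chr7:131560247-131560366 on the plus strand, that of Top2a chr11:99024200-99024319 on the minus strand, that of Cdc20 chr4:118437344-118437463 on the minus strand and that of Ube2c chr2:164769809-164769928 on the plus strand. The stretch of Mki67 is chr7:135716451-135716570, that of Cdk1 chr10:69352913-69353032 and that of Ccnb1 chr13:100786571-100786690, all on the minus strand.
Bub3: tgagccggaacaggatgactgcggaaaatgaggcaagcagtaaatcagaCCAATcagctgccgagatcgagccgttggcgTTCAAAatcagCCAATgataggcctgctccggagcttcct
Top2a: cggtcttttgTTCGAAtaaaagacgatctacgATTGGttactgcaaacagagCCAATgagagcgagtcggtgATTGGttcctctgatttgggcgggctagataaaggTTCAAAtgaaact
Cdc20: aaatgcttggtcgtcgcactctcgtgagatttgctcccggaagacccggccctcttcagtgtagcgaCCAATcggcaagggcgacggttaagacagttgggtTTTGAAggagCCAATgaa
Ube2c: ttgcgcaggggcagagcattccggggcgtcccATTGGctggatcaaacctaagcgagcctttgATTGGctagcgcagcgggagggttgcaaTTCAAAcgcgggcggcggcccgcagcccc
Mki67: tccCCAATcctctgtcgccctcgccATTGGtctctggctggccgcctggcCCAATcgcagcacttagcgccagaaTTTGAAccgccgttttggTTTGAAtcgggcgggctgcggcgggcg
Cdk1: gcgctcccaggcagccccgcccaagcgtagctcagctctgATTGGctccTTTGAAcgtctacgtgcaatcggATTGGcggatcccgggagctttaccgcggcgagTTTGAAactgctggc
Ccnb1: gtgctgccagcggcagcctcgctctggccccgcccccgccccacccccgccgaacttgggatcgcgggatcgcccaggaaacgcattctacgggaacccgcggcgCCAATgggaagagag
In the Cdc20 and Bub3 stretches the CHR letters stand between CCAAT letters, shortly before the downstream ones. The first CHR letters of the Cdk1 stretch also stand between CCAAT letters. Top2a, Mki67 and Cdk1 each show CHR letters at more than 1 place. The window of Ccnb1 held CCAAT letters but no CHR letters.

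**Figure D3:**
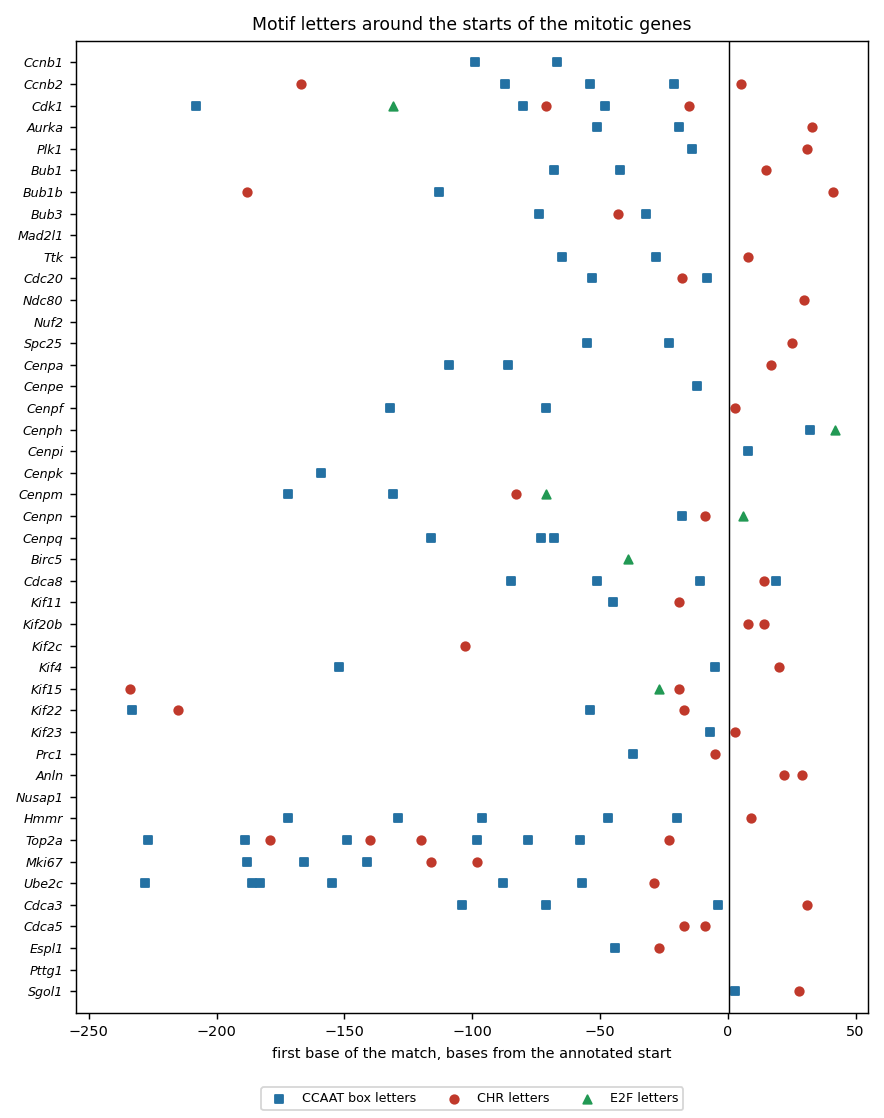
Position of motif letters in the RefSeq promoter window of each of the 44 matched mitotic genes (first window where a gene has several); the horizontal axis is the distance in bases of the first letter of a match from the annotated start, marked by the vertical line. Squares are CCAAT letters, circles CHR letters and triangles E2F letters. Circles crowd around the start, and squares lie mostly upstream of it.

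The ranges of change overlapped between genes with and without these letters. The 33 genes with CHR letters had a median change of 0.34, ranging from -0.49 to 1.82, and 24 of them had a higher FPKM at week-3. The 11 genes without CHR letters had a median of 0.58, ranging from -1.35 to 1.03, and 9 had a higher FPKM. Of the 15377 genes above 0 in both libraries, 8253 had a higher FPKM. The 33 genes with CCAAT letters had a median of 0.34 (-1.35 to 1.82, 25 higher), and the 11 without had 0.53 (-0.27 to 1.61, 8 higher). The 6 genes with E2F letters, Cdk1, Cenph, Cenpm, Cenpn, Birc5 and Kif15, had a median of 0.06 and ran from -0.27 to 0.39. The 38 without had a median of 0.41 and ran from -1.35 to 1.82. These are descriptions of few genes in 2 libraries.

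The cyclins of mitosis moved apart. Ccna2 (ENSMUSG00000027715), which encodes cyclin A2 of S phase and G2, lies on chromosome 3 of GRCm38 from 36564865 to 36572150 on the minus strand. It had 1025 reads (FPKM 25.7) at week-0 and 388 reads (FPKM 15.9) at week-3, a change of -0.69 (interval -0.86 to -0.52). Ccnb1 (ENSMUSG00000041431, chromosome 13, 100778650 to 100786570), encoding cyclin B1, the main activator of Cdk1 at mitotic entry, had 393 reads (FPKM 7.68) and 480 reads (FPKM 15.3). Its change was 0.998 (interval 0.80 to 1.19), just under the 1 that stands for 2 times on the log2 scale. Thus Ccna2 was lower and Ccnb1 higher at week-3 at the wider limits, and neither passed the limits of 2 and 0.5. For every Ccna2 read there were 0.383 Ccnb1 reads before withdrawal and 1.24 after it, and the difference of their log2 changes was 1.69 (interval 1.43 to 1.95). Ccnb2, encoding the Golgi-associated cyclin B2 and among the highest of the 50 genes, had an FPKM of 111 and 96.5 (1085 and 578 reads), a change of -0.20 (interval -0.35 to -0.05). Cdk1, the kinase they share, had an FPKM of 22.4 and 25.0 (713 and 487 reads), a change of 0.16 whose interval from -0.01 to 0.33 holds no change. Ccnb1 has 3 processed pseudogene copies in GENCODE M21, of which Ccnb1-ps is 99.22% identical over 1287 bases, so its reads may be shared with them. Ccna2 shares 510 exon bases with Exosc9 on the opposite strand, which had 117 and 175 reads, and whether the counting used strand is not given in the sources used here.

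All 3 Aurora and Polo kinases were higher at week-3 at the limit of 1.5 times, as were 18.3% of all genes and 21.8% of the deep genes. Aurkb no longer passed that limit with TMM or median-of-ratios scaling. Aurka, the kinase of centrosomes and spindle poles, had 366 reads (FPKM 14.8) at week-0 and 394 reads (FPKM 26.1) at week-3, a change of 0.82 (interval 0.61 to 1.03). Plk1, the Polo kinase that acts from mitotic entry to cytokinesis, went from an FPKM of 12.9 to 22.4 (266 and 282 reads), a change of 0.79 (interval 0.55 to 1.04). Aurkb, the catalytic subunit of the chromosomal passenger complex, had an FPKM of 12.9 and 19.8 (478 and 447 reads), a change of 0.61 (interval 0.42 to 0.80). Tpx2, which activates Aurka on spindle microtubules, had an FPKM of 6.18 and 9.85 (284 and 277 reads) and a change of 0.67, and the interval of the difference between Aurka and Tpx2 ran from -0.17 to 0.46.

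At week-3 the FPKM of all 6 spindle checkpoint genes was higher, as it was for 8253 of the 15377 genes above 0 in both libraries. The checkpoint genes had a median change of 0.50, and 2 of them, Ttk and Mad2l1, passed 2 times, as did 9.53% of all genes and 7.58% of the deep genes. Mad2l1 no longer did so with TMM (0.92) or median-of-ratios scaling (0.94). Ttk (ENSMUSG00000038379, chromosome 9, 83834689 to 83872389, plus strand), encoding Mps1, the kinase that starts checkpoint signaling at kinetochores, had the largest change of the 50 genes. It had 31 reads (FPKM 0.837) at week-0, the lowest of the 50, and 67 reads (FPKM 2.96) at week-3. Its change of 1.82 has a wide interval, from 1.19 to 2.49. Mad2l1 (ENSMUSG00000029910, chromosome 6, 66535390 to 66547220), which encodes the Mad2 protein that sequesters Cdc20, had 277 reads (FPKM 4.18) and 346 reads (FPKM 8.55), a change of 1.03 (interval 0.80 to 1.26). Bub3 (ENSMUSG00000066979, chromosome 7, 131560391 to 131571898), which brings Bub1 and BubR1 to kinetochores, was the highest of the 50 genes by FPKM in both libraries, with 1453 reads (FPKM 111) and 1183 reads (FPKM 148). Its change was 0.41 (interval 0.30 to 0.52). Bub1, the kinetochore kinase, had 93 and 85 reads and a change of 0.58 (interval 0.14 to 1.02). Bub1b, which encodes BubR1, had 214 and 159 reads and a change of 0.28 with an interval from -0.02 to 0.58. Cdc20, the activator of the anaphase-promoting complex that the checkpoint inhibits, had 1119 reads (FPKM 76.6) and 876 reads (FPKM 98.0), a change of 0.36 (interval 0.23 to 0.49). The difference between Ttk and Bub1 was 1.24 (interval 0.50 to 1.99).

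In the Ndc80 complex, a rod of 4 proteins that holds microtubules, the subunits had unequal values. Nuf2 had 159 reads (FPKM 3.26) and 173 reads (FPKM 5.80), a change of 0.83 (interval 0.51 to 1.15), and was the one subunit past 1.5 times. Ndc80, which binds microtubules directly, had 103 and 91 reads and a change of 0.53 (interval 0.11 to 0.95). On the kinetochore side of the rod, Spc24 had an FPKM of 83.6 and 96.9 (717 and 508 reads), a change of 0.21 (interval 0.05 to 0.38), and Spc25 an FPKM of 9.88 and 10.3 (330 and 211 reads), a change of 0.06 (interval -0.19 to 0.32). The difference between Nuf2 and Spc25 was 0.77 (interval 0.37 to 1.17), while that between Nuf2 and Ndc80 was 0.30 with an interval from -0.21 to 0.81. A stretch of 140 to 151 bases of the Spc24 transcript is 97.18 to 98.01% identical to stretches in other transcripts, among them Malat1, which had 8485 and 3845 reads.

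Centromere proteins held both directions. Cenpi (ENSMUSG00000031262), encoding a subunit of the constitutive network that sits on CENP-A chromatin, lies on chromosome X from 134308084 to 134362639 on the plus strand. It had 230 reads (FPKM 4.66) at week-0 and 55 reads (FPKM 1.82) at week-3. Its change of -1.35 (interval -1.81 to -0.92) was the lowest of the 50. The partners of CENP-I in the H, I, K and M subcomplex did not share this change. Cenpk had 88 reads (FPKM 7.57) and 98 reads (FPKM 13.8), a change of 0.86 (interval 0.43 to 1.30) and past 1.5 times. Cenph had 225 and 157 reads and a change of 0.19 (interval -0.11 to 0.49), and Cenpm had 414 and 246 reads and a change of -0.04 (interval -0.27 to 0.19). The differences from Cenpi were 2.22 (interval 1.63 to 2.81) for Cenpk, 1.54 (interval 1.03 to 2.06) for Cenph and 1.31 (interval 0.83 to 1.79) for Cenpm. Cenpn, which reads CENP-A nucleosomes, had 135 and 77 reads and a change of -0.10 (interval -0.52 to 0.31). Cenpq, of the subcomplex around CENP-O, had 125 and 114 reads and a change of 0.58 (interval 0.20 to 0.95). Cenpa, the histone H3 variant, had 1216 reads (FPKM 19.7) and 840 reads (FPKM 22.3), a change of 0.18 (interval 0.05 to 0.30). Cenpe, a kinetochore motor that brings chromosomes to the spindle equator, had 315 reads (FPKM 5.25) and 331 reads (FPKM 9.03), a change of 0.78 (interval 0.55 to 1.01), and was past 1.5 times. Cenpf, a large protein of the outer kinetochore, had 362 and 281 reads and a change of 0.34 (interval 0.11 to 0.57).

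The partners of Aurkb in the chromosomal passenger complex all had a higher FPKM at week-3, as had 8253 of the 15377 genes above 0 in both libraries. Incenp, the scaffold, had 415 reads (FPKM 20.3) and 397 reads (FPKM 31.8), a change of 0.65 (interval 0.44 to 0.85), and was past 1.5 times. With TMM (0.53) and median-of-ratios scaling (0.56) it was under 1.5 times. Birc5, which encodes survivin, had 1139 reads (FPKM 43.0) and 912 reads (FPKM 56.3), a change of 0.39 (interval 0.26 to 0.52). Cdca8, which encodes borealin, had 838 reads (FPKM 20.1) and 564 reads (FPKM 22.2), a change of 0.14 (interval -0.02 to 0.29). The difference between Aurkb and Birc5 was 0.22, and its interval, which reached 0.45, held no difference at its lower end. That between Incenp and Cdca8 was 0.51 (interval 0.26 to 0.76).

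The 8 kinesins were split evenly, with 4 higher and 4 lower in FPKM and a median change of 0.14. Kif2c, which takes microtubules apart at kinetochores, had 116 reads (FPKM 2.93) and 131 reads (FPKM 5.42), a change of 0.89 (interval 0.51 to 1.26). Kif20b, a motor of cytokinesis, had 197 reads (FPKM 5.57) and 188 reads (FPKM 8.70), a change of 0.64 (interval 0.35 to 0.94). These 2 were past 1.5 times, as were 18.3% of all genes, and Kif20b was under it with TMM (0.53) and median-of-ratios scaling (0.55). Kif11, the motor that pushes spindle poles apart, had 306 and 254 reads and a change of 0.44 (interval 0.20 to 0.69), and Kif22, a motor on chromosome arms, had 448 and 363 reads and a change of 0.41 (interval 0.20 to 0.61). Kif15, which also keeps the spindle bipolar, had 413 reads (FPKM 13.5) and 209 reads (FPKM 11.2), a change of -0.27 (interval -0.52 to -0.03). Kif4, the chromokinesin, had 94 and 41 reads and a change of -0.49 whose interval ran from -1.05 to 0.06. Kif23, of the centralspindlin complex, had 314 and 171 reads and a change of -0.17 (interval -0.44 to 0.11). Kif20a, which carries the passenger complex to the midzone, had 127 and 71 reads and a change of -0.13 (interval -0.57 to 0.30). The difference between Kif2c and Kif4 was 1.37 (interval 0.73 to 2.01), and that between Kif20b and Kif20a was 0.77 (interval 0.26 to 1.28). Kif4 shares 832 exon bases with Pdzd11 (329 and 274 reads) and Kif20a 1271 with Cdc23 (174 and 102 reads), both on the opposite strand. Whether reads of these neighbors were counted for Kif4 and Kif20a is not known.

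Among the proteins of the spindle midzone and cytokinesis, Anln stood apart. Anln (ENSMUSG00000036777, chromosome 9, 22331214 to 22389206, minus strand), encoding the contractile ring scaffold anillin, had 44 reads (FPKM 1.28) at week-0 and 82 reads (FPKM 3.89) at week-3. Its change was 1.61 (interval 1.06 to 2.17), past 2 times. Prc1, which bundles the microtubules of the midzone, had 139 and 97 reads and a change of 0.19 (interval -0.20 to 0.58), and the difference between Anln and Prc1 was 1.42 (interval 0.77 to 2.06). Prc1 shares 911 exon bases with Rccd1 (96 and 42 reads) on the opposite strand. Nusap1, a microtubule stabilizer near chromosomes, had 295 and 174 reads and a change of -0.05 (interval -0.33 to 0.22). Hmmr, a spindle pole protein, had 182 and 144 reads and a change of 0.37 (interval 0.05 to 0.70).

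The 2 chromosome proteins often read as marks of proliferation differed from each other. Top2a, the topoisomerase that untangles sister chromatids, had 1141 reads (FPKM 16.7) and 1050 reads (FPKM 25.2), a change of 0.59 (interval 0.47 to 0.71), just past 1.5 times. With TMM (0.48) and median-of-ratios scaling (0.50) it was under 1.5 times. Mki67, which encodes the Ki-67 antigen that coats mitotic chromosomes, had 1103 reads (FPKM 17.2) and 646 reads (FPKM 16.5), a change of -0.06 (interval -0.20 to 0.08). The difference between them was 0.65 (interval 0.47 to 0.84).

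Genes of anaphase and cohesion control again held both directions. Sgol1 (ENSMUSG00000023940, chromosome 17, 53674786 to 53689333), encoding shugoshin, which protects cohesin at centromeres, had 59 reads (FPKM 2.18) and 83 reads (FPKM 5.02), a change of 1.20 (interval 0.70 to 1.71), past 2 times. Espl1, which encodes separase, the protease that opens cohesin, had 386 reads (FPKM 9.16) and 186 reads (FPKM 7.22), a change of -0.34 (interval -0.60 to -0.09). Cdca5, which encodes sororin, a further cohesin protector, had 577 reads (FPKM 42.4) and 302 reads (FPKM 36.3), a change of -0.22 (interval -0.43 to -0.02). Pttg1, which encodes securin, the separase inhibitor, had 222 and 150 reads and a change of 0.14 (interval -0.16 to 0.45). Ube2c, the E2 enzyme of the anaphase-promoting complex, had 1057 reads (FPKM 59.9) and 777 reads (FPKM 72.0), a change of 0.27 (interval 0.13 to 0.40). Cdca3, a factor of mitotic entry, had 566 reads (FPKM 17.9) and 541 reads (FPKM 28.0), a change of 0.64 (interval 0.47 to 0.82), past 1.5 times. With TMM (0.53) and median-of-ratios scaling (0.56) it was under 1.5 times. The difference between Sgol1 and Espl1 was 1.55 (interval 1.002 to 2.09), and that between Cdc20 and Ube2c was 0.09 with an interval from -0.09 to 0.28. The pairs compared here were chosen after the values had been seen.

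**Figure D4:**
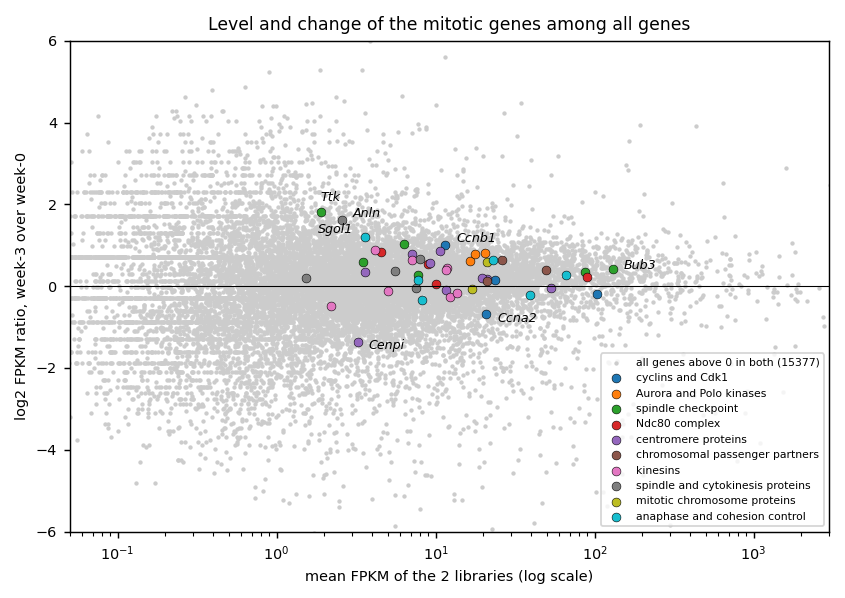
Log2 FPKM ratio of week-3 over week-0 (vertical axis, shown from -6 to 6) against the mean FPKM of the 2 libraries (horizontal log axis) for all 15377 genes above 0 in both (grey) and the 50 mitotic genes (colored by role). The genes with the largest ratios, Ttk, Anln and Sgol1, lie at the low end of the mitotic genes by FPKM, and Bub3 lies at the high end.

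The changes showed little relation to gene properties. Across the 50 genes, Pearson's r of the change with the log2 mean FPKM was -0.21 (Spearman's rho -0.23), with the GC content of the transcript -0.20 (rho -0.25), with its log2 length 0.04 (rho 0.06) and with the number of exons 0.00 (rho 0.05). Over 8543 coding genes with at least 98 summed reads, r of the change with GC content was -0.12 and with length -0.15. The points share their libraries and depth, so these values are descriptions only.

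Other genes of cell division, listed by function, had medians above that of all genes, with few large changes. Over 112 other mitotic genes in 5 lists, the median change was 0.29. The FPKM was higher for 81 and lower for 31, beside 8253 and 7124 of the 15377 genes above 0 in both libraries. Of the 112, 11 were higher at 2 times (9.8%), 3 lower at 0.5 times (2.7%), 24 higher at 1.5 times (21.4%) and 7 lower at 0.67 times (6.2%). Beside them, 9.53%, 11.5%, 18.3% and 17.1% of all genes were called, and 7.58%, 11.3%, 21.8% and 20.1% of the deep genes, so their shares of higher genes were near the background while those of lower genes were under it. Of 29 other centromere and kinetochore genes, 5 were higher at 2 times and none lower at 0.5 times, with a median change of 0.44. They included Cenpw (124 and 167 reads, change 1.14), Dsn1 of the Mis12 complex (55 and 91 reads, 1.44) and Oip5, which helps load CENP-A (51 and 92 reads, 1.56). The most read gene of that list, Pmf1, had a change of 0.38. Of 17 condensin and cohesin genes, 2 were higher at 2 times, the condensin subunits Ncaph (136 and 167 reads, 1.01) and Ncapg (48 and 78 reads, 1.41), with a list median of 0.35 and a change of 0.61 for the most read, Smc4. Ncaph was under 2 times with TMM (0.89) and median-of-ratios scaling (0.92), and Ncapg was with a pseudocount of 1 (0.73). Of 17 genes of the anaphase-promoting complex, 2 subunits were higher at 2 times, Cdc27 (1.04) and Anapc10 (1.06), the median was 0.17 and the most read, Anapc5, was at 0.18. Both subunits were under 2 times with TMM (0.92 and 0.94) and median-of-ratios scaling (0.95 and 0.97). Of 15 genes of mitotic entry and its transcription factors, the phosphatase gene Cdc25a alone was higher at 2 times (165 and 245 reads, 1.28), the median was 0.20 and the most read, Cks1b, was at 0.20.

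Of 34 centrosome and spindle assembly genes, 3 were lower at 0.5 times and 1 higher at 2 times, where 11.5% and 9.53% of all genes were called. The list median was 0.27, and the most read gene, Cit, was at 0.04. The 3 lower genes were Stil, a centriole duplication factor (293 and 74 reads, -1.28), the kinesin Kif18b (233 and 46 reads, -1.63) and Tubgcp6 of the gamma-tubulin ring (151 and 45 reads, -1.04, and -0.57 with a pseudocount of 1). The 34 licensing and S phase genes, which come before mitosis in the cycle, had a median change of 0.24. In FPKM 28 were higher and 6 lower, beside 8253 and 7124 of the 15377 genes above 0 in both libraries. Of the 34, 4 were higher at 2 times (11.8%) and 1 lower at 0.5 times (2.9%), beside 9.53% and 11.5% of all genes. At the wider limits 10 were higher (29.4%) and 1 lower (2.9%). There the shares were 34.0% and 4.0% of the 50 mitotic genes, 18.3% and 17.1% of all genes, and 21.8% and 20.1% of the deep genes. Intervals lay wholly above no change for 22 of the 34 (64.7%) and wholly below for 3 (8.8%), beside 60.0% and 12.0% of the 50 mitotic genes. Rrm2, the inducible subunit of ribonucleotide reductase, had 247 and 658 reads (FPKM 10.4 and 45.5, change 2.12), and Cdc6, a licensing factor, had 93 and 153 reads (1.43). Pole, the catalytic subunit of polymerase epsilon, had 647 and 165 reads (FPKM 7.42 and 3.10, change -1.26), and the most read, Rfc2, was at 0.09.

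**Figure D5:**
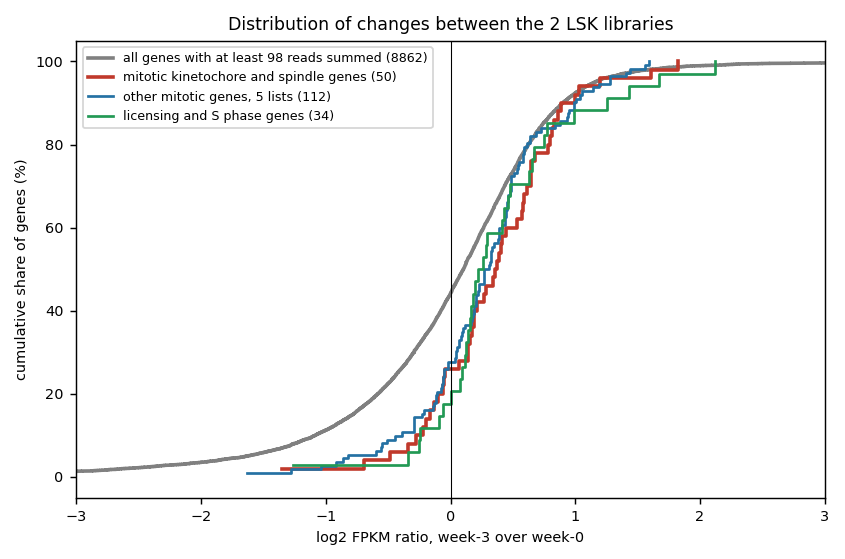
Cumulative share of genes (vertical axis, percent) by log2 FPKM ratio of week-3 over week-0 (horizontal axis) for the 50 mitotic genes, 112 other mitotic genes, 34 licensing and S phase genes and the 8862 genes with at least 98 reads summed. At low ratios the curves of the cell division lists lie right of the grey curve, which is that of the 8862 genes. At 1.5 times 34.0% of the mitotic genes were higher, compared with 21.8% of the genes of the grey curve. At 2 times the shares were 8.0% and 7.58%.

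Markers of several other cell types differed between the libraries by larger ratios than the summed mitotic genes, and their part in these results was not tested. The 9 neutrophil granule and surface markers took 3453 reads per 1000000 at week-0 and 16251 at week-3, with all 9 above 0 in both libraries and Mpo the most read. The 9 mast cell and basophil markers took 486 and 4035 per 1000000. Their most read gene, Tpsb2, had 0 reads before withdrawal and 5442 after it, while Prss34 (1300 and 380 reads, change -1.06) and Gata2 (896 and 378 reads, -0.54) of the same list went the other way and were named after their values were seen. Erythroid markers took 1639 and 398 per 1000000 (9 genes, Car2 the most read), and 8 of them had a lower FPKM at week-3. Tfrc of that list went the other way (140 and 238 reads, change 1.48) and was named after its value was seen. B and plasma cell markers took 909 and 82.1 (6 genes, 5 lower and 1 higher in FPKM). Jchain, the most read, had 5120 of their 5780 week-0 reads but 96 of their 319 week-3 reads. Cd79b, the 1 higher gene and named after its value was seen, had 216 of the week-3 reads. Stem cell markers took 272 and 147 (5 genes, all 5 lower at 0.67 times, Meis1 the most read). Megakaryocyte markers took 129 and 196 per 1000000, where Itga2b, the most read, was at 0.93, the other 3 genes had a lower FPKM at week-3 and the median was -0.54. Macrophage markers took 19.7 and 35.0 per 1000000, nearly all of it from Csf1r (110 and 127 of the list's 125 and 136 reads). Of the 4 macrophage markers, 2 were higher and 2 lower in FPKM. T cell markers took 6.45 and 2.06 (Trac, with Cd3e and Cd8a at 0 at week-3).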

How the data were processed

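RNA of LSKs was sequenced as paired ends after cDNA preparation with the SMARTer Ultra Low Input kit, 1 library at week-0 and 1 at week-3, each from 3 mice mixed together. Reads had been trimmed and then mapped to GRCm38 (mm10) by TopHat2 2.0.9. The authors deposited raw counts per gene, not normalized, and FPKM, which divide the count by exon length and by the total counted on genes. The counting tool, its strand setting and the annotation release are not given in the sources used here.

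The tables were joined by Ensembl identifier. Coordinates are those of the deposited tables, of which 35 of the 50 genes have identical ones in GENCODE M21, and strand, transcript length and overlaps come from GENCODE M21. With 1 library per time point no test between conditions is possible and no p-value is given. Calls used the FPKM ratio with an exact Clopper-Pearson interval (95%) of the reads. The depth of 6356164 and 3886695 reads sets a floor of 3 reads, 0.472 and 0.772 per 1000000. Intervals of differences between genes combine the errors of both genes on the log scale. Alternatives were TMM (edgeR 4.0.16), median-of-ratios (DESeq2 1.42.0), totals without the 10 most read genes, pseudocounts of 0.1 and 1, limits on low values and edgeR's exact test with an assumed biological coefficient of variation of 0.1. Similar transcripts were searched with BLAST+ 2.17.0, keeping at least 100 aligned bases at 97% identity. The software was R 4.3.3 and Python 3.11.15 (scipy 1.17.1, pandas 2.3.3, matplotlib 3.10.9). The counting intervals and the calls at 2 and 0.5 times were tested on simulated reads that held counting error alone. The other procedures were not tested in this way.

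The 50 genes and all lists were chosen with earlier results of these data known. By rule, the text names all 50 genes. Of each list of other division genes it names the most read gene and at most 3 of the most read genes past 2 or 0.5 times. Of each marker list it names the most read gene, and markers at 0 or against the direction of their list were added after their values were seen. Some markers of the stem cell and of the B and plasma cell lists are not reported here and were left out of the sums. Promoter sequences, from RefSeq, were limited to at most 6 of the most read genes with CHR letters plus 2 others, and 1 of the 6, Cenpa, was left out because its CHR letters lie after the start. The gene called Sgol1 in the tables is Sgo1 in RefSeq. Bases inside the gene as RefSeq bounds it, or far inside it as the tables do, were not printed.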

Additional observations from a re-analysis of the deposited data

How the results depend on the processing

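The 4 mitotic genes higher at 2 times became 3 under both TMM and median-of-ratios, which lost Mad2l1, 5 without the 10 most read genes, which added Ccnb1, and 2 with a pseudocount of 1, where Anln and Ttk were left. Cenpi was the sole gene lower at 0.5 times under every alternative run. Of the 17 genes higher at 1.5 times, 11 were left under TMM and 11 under median-of-ratios, both of which lost Aurkb, Cdca3, Incenp, Kif20b, Top2a and Tpx2, and 14 were left with a pseudocount of 1. Without the 10 most read genes there were 19, with Bub1 and Cenpq added. The 2 genes lower at 0.67 times became 3 under TMM, which added Kif4. These scalings move all genes together. With TMM the median of all genes went from 0.09 to -0.02 and that of the mitotic genes from 0.36 to 0.25, while the difference between the medians stayed at 0.27. Spc25, at 0.06, was at -0.05 under TMM and -0.02 under median-of-ratios. The share of all genes higher and lower was 7.73% and 13.4% at 2 and 0.5 times with TMM, and 14.7% and 19.9% at 1.5 and 0.67 times. The ratio of the summed reads, 1.22, was 1.13 under TMM and 1.15 under median-of-ratios. With edgeR's exact test at an assumed biological coefficient of variation of 0.1, 4 genes were again higher at 2 times and 1 lower at 0.5 times. No other gene of the 50 changed sign under these alternatives. Among the other division genes named, Ncaph, Cdc27 and Anapc10 were under 2 times with TMM (0.89, 0.92 and 0.94) and with median-of-ratios (0.92, 0.95 and 0.97). With a pseudocount of 1 the same 3 (0.84, 0.84 and 0.93) and Ncapg (0.73) were under 2 times and Tubgcp6 was at -0.57. Cit and Rfc2, at 0.04 and 0.09, are within the shift that TMM makes. Leaving out a replicate was not possible with 1 library per time point. No paired analysis was possible because each time point has 1 library. Depth limits the genes with few reads, such as Ttk with 31 reads and Anln with 44 at week-0, whose intervals span more than 1 on the log2 scale.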
